A study of Mus musculus with 17 samples.

Results

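The genes described here are those with which a mammalian cell answers a shortage of amino acids and loads its tRNAs: the transcription factor Atf4 and its partners, its target genes, the amino acid transporters and the cytosolic aminoacyl-tRNA synthetases. The list held 39 genes, set by name, with earlier results of these data known when it was chosen. Of these, 37 had a probe under their symbol on the array (80 probes of 45281), and 33 were measured, meaning that a probe was detected at p under 0.01 on at least 2 arrays. They stand among 12451 genes tested in all. Slc7a5 and Pycr1 were not among the annotated symbols, Psph, Slc7a1 and Slc1a5 were detected on 0 arrays, and Yars did not reach 2. Of the 33 measured genes, 30 were detected on all 17 arrays. The other 3 were Slc3a2 (14 arrays), Hars (5 arrays) and Sesn2 (5 arrays). By role, 6 of 6 regulators were measured, 3 of 3 stress effectors, 5 of 7 enzymes of serine, one-carbon and proline synthesis, 5 of 8 transporters, and 14 of 15 genes of tRNA charging and export.

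The tumours were MCA205, a transplantable mouse fibrosarcoma line, grown in wild-type C57bl/6 mice until palpable and then injected directly with doxorubicin (DX, an anthracycline that damages DNA) or with phosphate-buffered saline (PBS). RNA was taken from whole tumours, not from sorted cells, and was measured on Illumina mouse BeadChips with 1 signal per probe and array. The 17 arrays form 6 groups: DX on day 2 (n = 2) and PBS on day 2 (n = 3), then DX responders, DX non-responders and PBS on day 7 (n = 3 each), and DX responders on day 10 (n = 3). Responders and non-responders were told apart by whether the tumour had shrunk. The labels give neither the age of the mice nor whether replicates were separate animals, so the p-values measure the spread between these samples, which may be technical.

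Amino acid shortage leaves tRNAs uncharged, and uncharged tRNA activates the kinase GCN2, which phosphorylates the translation factor eIF2 and slows protein synthesis in general. Translation of the Atf4 mRNA increases under the same condition, and the ATF4 protein then switches on genes that import amino acids, make them and attach them to tRNA. Kinases that sense unfolded protein, viral RNA or heme shortage act through the same factor, so the pathway is called the integrated stress response. Much of the control of Atf4 lies in its translation, which an mRNA measurement does not show.

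Over the whole series, each array detected 13728 to 15568 probes, with a median signal between 105.8 and 135.5, and replicates correlated with r between 0.965 and 0.991 across genes. Replicates 2 and 3 of day 7 PBS were the dimmest arrays, with 75th percentiles of 133.3 and 138.5. Skeletal muscle transcripts were abundant on replicate 3 of both responder groups (day 7 and day 10), called the muscle-rich arrays below. Fibrosarcoma and fibroblast markers were measured in 10 of 10 cases in the list, and their summed log2 signal ran from 14.52 to 15.28 over the 17 arrays.

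Many ATF4 targets carry a composite C/EBP-ATF element near their start, with the core TGATGNAA (TTNCATCA on the other strand). Shown for this core, which is in capitals on the gene's strand, are 4 members that held it and whose values are given below: Chac1 and Iars, which were called in a comparison, and Asns and Trib3, which were not. They are from RefSeq, build GRCm38.p6.
Chac1, chr2:119351029-119351076, plus strand: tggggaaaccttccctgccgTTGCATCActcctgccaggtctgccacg
Asns, chr6:7693210-7693252, minus strand: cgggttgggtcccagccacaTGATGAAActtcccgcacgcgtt
Iars, chr13:49682127-49682154, plus strand: actgtcagtaTTGCATCAcctccagacg
Trib3, chr2:152344029-152344056, minus strand: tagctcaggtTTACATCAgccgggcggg
The core began 193 bases before the annotated start in Chac1 and 23 bases before it in Asns. In Iars and Trib3 it lay just inside the transcript, from bases 8 and 15 counted from the start. A window of 300 bases (250 before and 50 after the start) was available for 26 of the 33 measured members, and 8 of these windows (30.8%) held the core on either strand, against 4.51% of all 27025 genes with a window. Besides the 4 shown, these were Aars, Gars and Tars, which are synthetases, and the transporter Slc1a4. By role, the core was found in 2 of 3 stress effectors, 4 of 8 genes of tRNA charging and export, 1 of 4 transporters, 1 of 6 regulators and 0 of 5 biosynthetic enzymes. The window of Xpot did not hold these letters, and no window of Slc7a3 was used here. A match is a description of the sequence and not a measurement of binding.

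**Figure D1:**
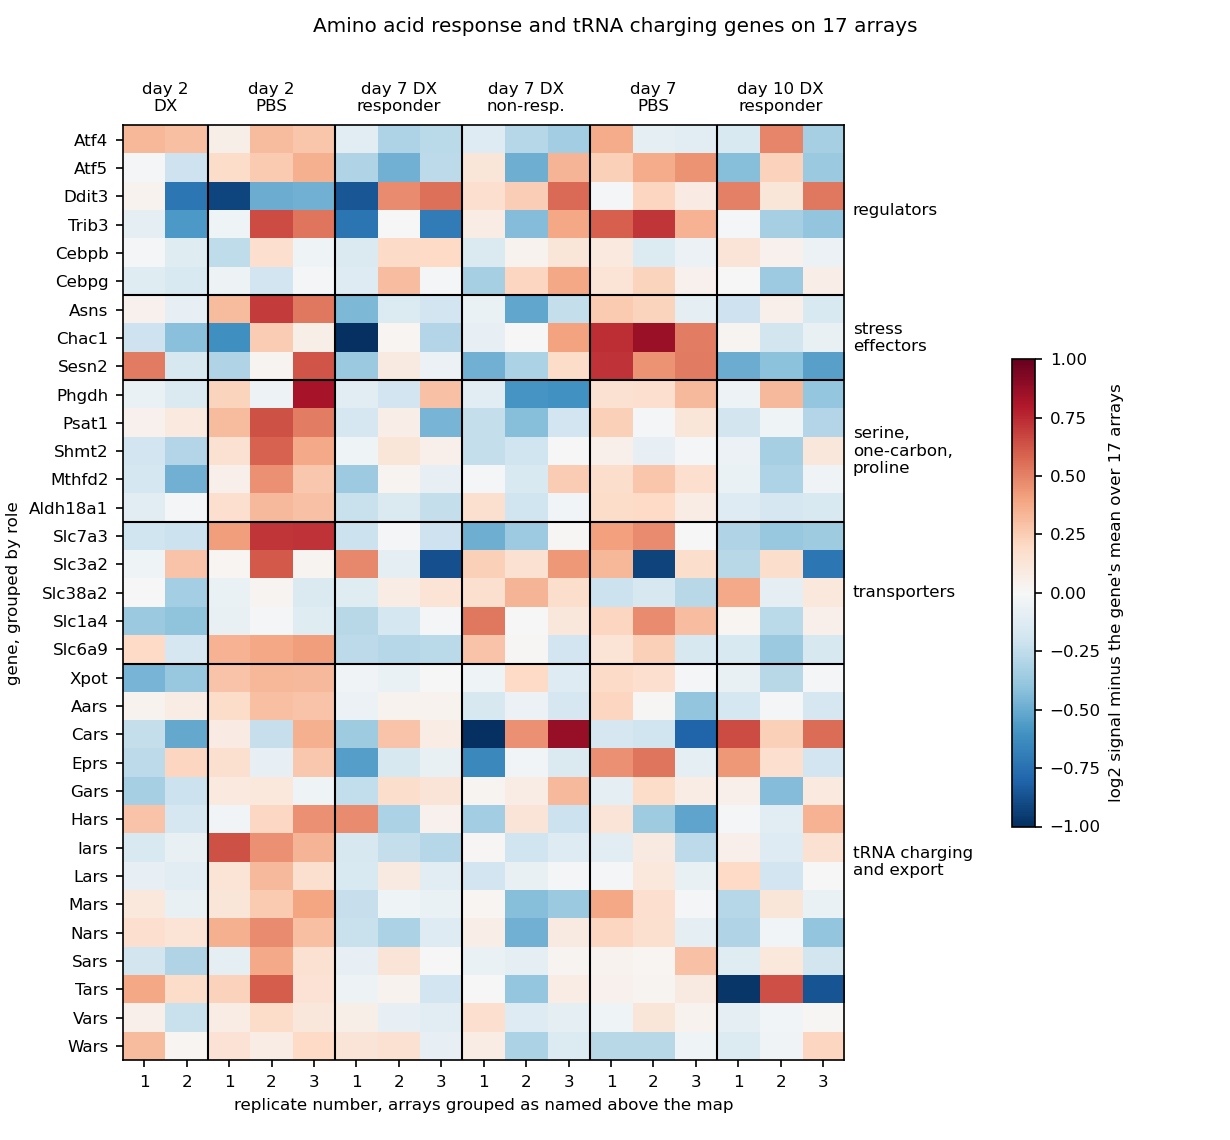
Log2 signal of the 33 measured members on each of the 17 arrays, minus the mean of the gene over all arrays, with genes grouped by role and arrays by group. Differences beyond 1 in either direction take the end colour of the scale. The rows of the serine, one-carbon and proline group and most rows of the tRNA group are redder in day 2 PBS than in day 2 DX, and Chac1 and Sesn2 have their highest group means in day 7 PBS.

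On day 2, 2 days after the injection, the list was lower in DX than in PBS tumours. Xpot, Slc7a3 and Iars fell at an adjusted p under 0.05, and no member rose. The calls are from limma, with Benjamini-Hochberg adjustment over all genes. Of all 12451 genes, 0.0803% were called lower and 0.61% in either direction, against 3 of 33 members (9.09%) called lower. At an unadjusted p under 0.05, 13 members (39.4%) were lower and 0 were higher, against 3.53% and 3.38% of all genes. Both DX arrays lay below all 3 PBS arrays for 21 members (63.6%), against 15.9% of all genes, and above them for 0 members, against 12.2%. In all, 29 of 33 differences were negative. The median log2 difference of the members was -0.31, and that of all genes was -0.02. Each gene is given by its brightest kept probe. Other kept probes that differ in sign or by more than 1.5 times are named for many values, but not for all.

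Xpot encodes exportin-t, which carries mature tRNA out of the nucleus. Its log2 signal was 9.83 and 9.91 on the DX arrays, against 10.58, 10.62 and 10.61 on the PBS arrays. The groups were separated by more than the whole spread of either one. The mean was 9.87 ± 0.06 in DX tumours (SD, n = 2) and 10.60 ± 0.02 in PBS tumours (SD, n = 3), a log2 difference of -0.73 ± 0.12 (SE), or 1.66-fold lower (limma, adjusted p = 0.00292). The 1 other kept probe of Xpot gave -0.49, and within BeadChip 3, the only chip that held both groups, the difference was -0.70 with 1 DX and 2 PBS arrays. With the mean of both probes in place of the brighter one the limma adjusted p was 0.107, and without DX replicate 1 it was 0.145.

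Slc7a3 encodes the cationic amino acid transporter CAT3, which imports arginine and lysine. It gave 7.59 and 7.57 on the DX arrays, against 8.21, 8.50 and 8.51 on the PBS arrays. Both DX arrays were at nearly the same low level, and none of the PBS arrays came near it. The log2 difference was -0.83 ± 0.18 (SE), or 1.77-fold lower (limma, adjusted p = 0.0388), and -0.93 within BeadChip 3. Of 5 fits that each left out 1 array, the call held in 1, without PBS replicate 1 (limma adjusted p from 0.0481 to 0.570 over the 5). It was also lost with BeadChip as a block (adjusted p = 0.0664) and with no filter on detection (adjusted p = 0.0652).

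Iars encodes the cytosolic isoleucyl-tRNA synthetase, whose promoter core is printed above. Its log2 signal was 9.59 and 9.67 on the DX arrays, against 10.38, 10.20 and 10.08 on the PBS arrays. The log2 difference was -0.59 ± 0.13 (SE), or 1.51-fold lower (limma, adjusted p = 0.0443). The other kept probe gave -0.43, and the difference within BeadChip 3 was -0.47. The call did not hold in any of the 5 fits that left out 1 array (limma adjusted p from 0.0712 to 0.760), nor with BeadChip as a block (adjusted p = 0.0966).

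**Figure D2:**
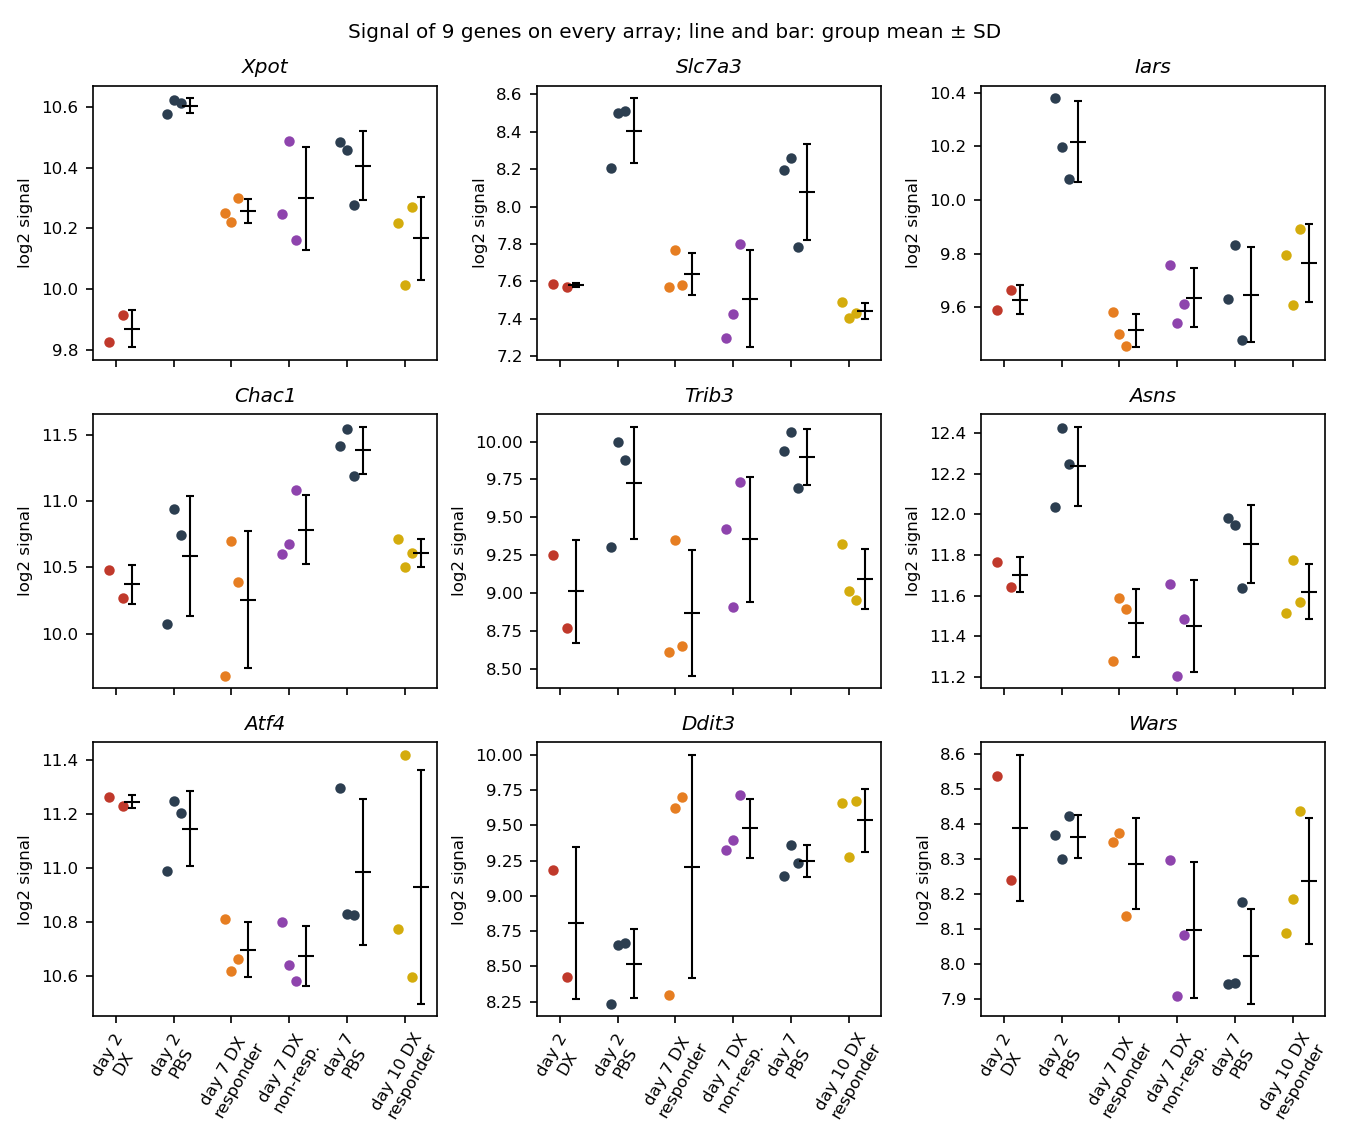
Log2 signal of 9 members on every array, in 6 groups, with points for arrays and the line and bar for the group mean ± SD. In Xpot, Slc7a3 and Iars the day 2 DX arrays lie below the day 2 PBS arrays, and in Chac1 and Trib3 the day 7 responder arrays lie below the day 7 PBS arrays. The vertical axes differ between panels and do not start at 0.

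By role, counts of genes separated on day 2 are set beside 15.9% of all genes, for which both DX arrays lay below. For the 5 measured enzymes of serine, one-carbon and proline synthesis, both DX arrays lay below all PBS arrays in 5 of 5, with a median difference of -0.44 and a range from -0.62 to -0.32, though limma called 0 of them. Phgdh and Psat1 catalyse steps of serine synthesis from a glycolytic intermediate, Shmt2 and Mthfd2 pass the serine carbon into the mitochondrial folate cycle, and Aldh18a1 begins proline synthesis. The closest to the threshold of these was Shmt2, at 8.38 and 8.27 on the DX arrays against 8.72, 9.15 and 8.94 on the PBS arrays (difference -0.62 ± 0.15, limma adjusted p = 0.108). A dimmer Shmt2 probe, detected on 3 arrays, gave -0.21. Among the 14 genes of tRNA charging and export, 10 lay below on both arrays, with a median of -0.24 and a range from -0.73 to 0.02. Among the 5 transporters, 3 lay below, with a median of -0.31. The 6 regulators had a median of -0.04, and 2 of them lay below. These separations were read after the values were seen, and a difference between the roles was not tested.

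The mRNA of Atf4 itself did not separate the groups on day 2. It was 11.26 and 11.23 on the DX arrays, against 10.99, 11.25 and 11.20 on the PBS arrays (difference 0.10 ± 0.19, limma adjusted p = 0.999), with an interval for the log2 difference from -0.29 to 0.49. The other kept Atf4 probe gave -0.19. Ddit3, which encodes the stress-induced factor CHOP, had 9.19 and 8.43 on the DX arrays, against 8.24, 8.65 and 8.67 on the PBS arrays. The first DX array was above all PBS arrays and the other lay between them (difference 0.29 ± 0.31, limma adjusted p = 0.999). Trib3, a pseudokinase that is a target of ATF4 and CHOP, had 9.25 and 8.77 on the DX arrays and 9.30, 10.00 and 9.88 on the PBS arrays. All the DX values were below the PBS values, the first of them by a small margin (difference -0.72 ± 0.26, limma adjusted p = 0.445). It was -0.47 without DX replicate 2, and 2 dimmer Trib3 probes, detected on 12 and 7 arrays, gave -0.60 and -0.08.

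Asns, asparagine synthetase, is the classic target of the amino acid response. It had 11.76 and 11.64 on the DX arrays, against 12.04, 12.43 and 12.25 on the PBS arrays. The DX arrays were below each PBS array, and the difference of -0.53 ± 0.15 did not pass the threshold (limma adjusted p = 0.183). Wars, the tryptophanyl-tRNA synthetase, is induced by interferon gamma as well as by ATF4. It had 8.54 and 8.24 on the DX arrays, against 8.37, 8.30 and 8.42 on the PBS arrays, so the DX arrays stood at either end of the range (difference 0.02 ± 0.16, limma adjusted p = 0.999), and another probe detected on all 17 arrays gave -0.23. Of a list of interferon gamma-induced genes, 12 of 12 measured members had positive differences on day 2, with a median of 0.66, and the chemokine Cxcl10 rose by 1.53 ± 0.23 (limma adjusted p = 0.00167).

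Further genes of the pathway and its surroundings were read from lists. Of 30 other integrated stress response genes (eIF2 kinases and phosphatase subunits, eIF2B subunits and further targets) 22 were measured, 15 were negative, 0 were called and the median was -0.13. Both DX arrays lay below all PBS arrays for 8 of these 22, where 15.9% of all genes did so. The 8 measured of 9 other cytosolic synthetases and complex factors had a median of -0.03, with 1 below. The 13 measured of 17 mitochondrial synthetases had a median of -0.13, with 4 below. Of 10 MYC-linked growth genes 8 were measured with a median of -0.25, and the transferrin receptor Tfrc fell by 0.91 (limma adjusted p = 0.0172). Whether the members differ from any of these lists was not tested.

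**Figure D3:**
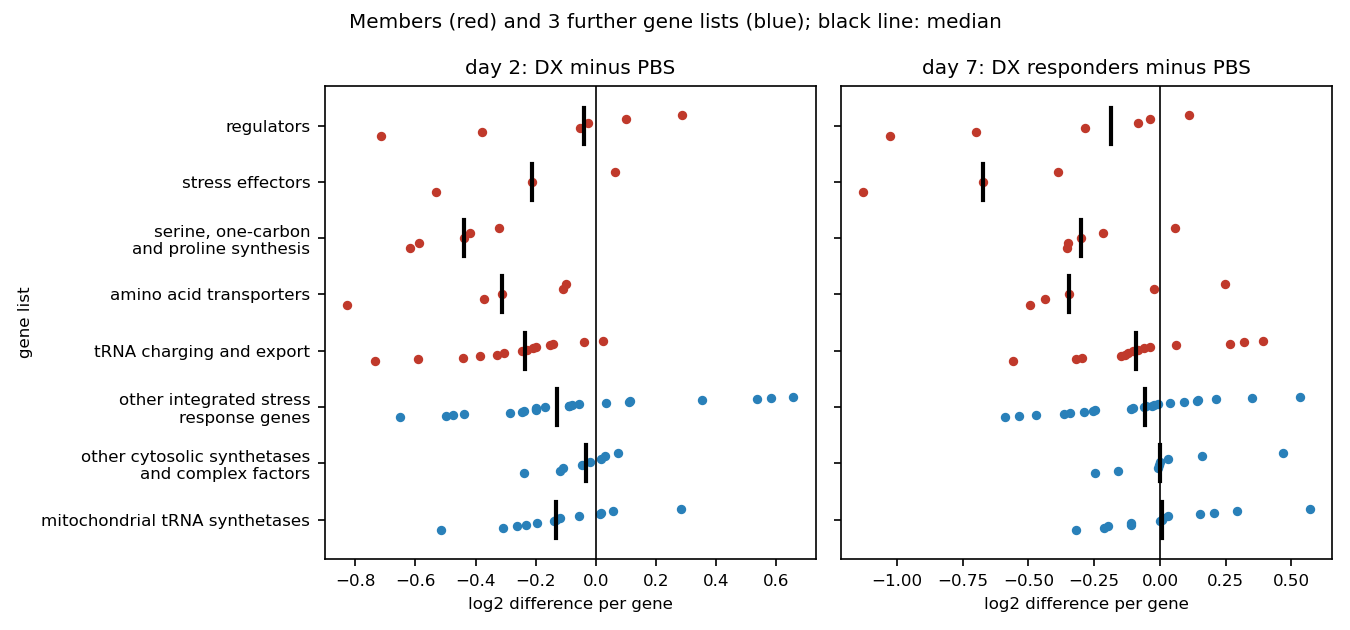
Log2 difference per gene (horizontal axis) for the members by role, in red, and for 3 further lists, in blue, on day 2 (DX minus PBS) and day 7 (DX responders minus PBS). Points are genes and the black line is the median of the list. On day 2 all 5 genes of serine, one-carbon and proline synthesis and all 5 transporters are below 0, while the other cytosolic synthetases lie close to 0 with a median of -0.03.

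Globin signal differed between the day 2 groups. The 3 measured globins of the red blood cell list (3 of 8) were called lower in DX tumours, with a median of -2.72, and their summed log2 signal was 7.59 to 8.30 in DX and 10.28 to 11.42 in PBS tumours. The leukocyte list (12 of 14 measured) had a median of 0.03 and a summed log2 signal of 13.89 to 13.98 in DX and 13.83 to 13.96 in PBS tumours. The fibrosarcoma and fibroblast list had a median of 0.08. The skeletal muscle list had 11 positive and 4 negative differences, with a median of 0.54. Its summed log2 signal was 10.63 to 11.52 in DX and 8.62 to 11.80 in PBS tumours. The epidermis list had 1 positive and 6 negative differences, with a median of -0.42. Its summed log2 signal was 9.31 to 9.68 in DX and 9.35 to 11.80 in PBS tumours. The part of blood, muscle or skin in the members' differences was not tested. In bulk tumour, fewer cells of a type and less RNA per cell cannot be told apart.

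On day 7, the list was again lower in DX responders than in PBS tumours, and the lowest differences were in the stress effectors and in regulators. Limma called Chac1 lower and no member higher. Of the members 1 of 33 (3.03%) was called lower, against 0.104% of all genes, and 0 were called higher, against 0.426%. In either direction 0.53% of all genes were called. At an unadjusted p under 0.05, 13 members were lower and 0 higher, against 5.61% and 8.21% of all genes. All 3 responder arrays lay below all 3 PBS arrays for 13 members (39.4%), against 7.98% of all genes, and above them for 1 member, against 11.2%. The median of the members was -0.15, and that of all genes was 0.01. This comparison uses the same PBS arrays as the one of non-responders below.

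Chac1 degrades glutathione in the cytosol and is a target of ATF4 and CHOP. Its log2 signal was 9.68, 10.70 and 10.39 on the responder arrays, against 11.42, 11.54 and 11.19 on the PBS arrays. Responder replicate 1 was the lowest, and the other two were still below every PBS array. The log2 difference was -1.13 ± 0.22 (SE), or 2.19-fold lower (limma, adjusted p = 0.0404). Within BeadChip 3, with 1 array of each group, it was -1.74. Of 6 fits that each left out 1 array, the call held in 1, without PBS replicate 3 (limma adjusted p from 0.0324 to 0.181 over the 6). With BeadChip as a block the difference was -1.38 (adjusted p = 0.219), and without the 2 muscle-rich arrays it was -1.19 (adjusted p = 0.103).

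Trib3 had 8.61, 9.35 and 8.65 on the responder arrays, against 9.94, 10.06 and 9.69 on the PBS arrays. The groups did not overlap, but the difference of -1.03 ± 0.23 did not pass the threshold (limma adjusted p = 0.0523). Atf5, a transcription factor controlled through translation much as Atf4 is, had 9.26, 9.09 and 9.30 on the responder arrays, against 9.80, 9.93 and 10.01 on the PBS arrays (difference -0.70 ± 0.18, limma adjusted p = 0.0955). Sesn2, a stress sensor that restrains mTORC1, was detected on 0 of 3 responder arrays and on 3 of 3 PBS arrays. It was at least 1.25-fold lower in responders (fitted mean 4.90 in responders and 5.57 in PBS tumours, limma adjusted p = 0.258). Sesn2 was kept through the arrays on which it was bright, and it is 1 of the 13 genes counted as below.

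Asns had 11.28, 11.59 and 11.53 on the responder arrays, against 11.98, 11.95 and 11.64 on the PBS arrays, without overlap (difference -0.39 ± 0.13, limma adjusted p = 0.21). The other 2 Asns probes, both detected on all 17 arrays, gave -1.42 and -0.34, and with the mean of the probes the difference was -0.72 and passed the threshold (limma adjusted p = 0.0272). Slc7a3, which was called on day 2, had 7.57, 7.77 and 7.58 on the responder arrays, against 8.19, 8.26 and 7.78 on the PBS arrays, where the lowest PBS array nearly met the highest responder array (difference -0.44 ± 0.16, limma adjusted p = 0.234). Atf4 had 10.81, 10.62 and 10.66 on the responder arrays and 11.30, 10.83 and 10.83 on the PBS arrays (difference -0.29 ± 0.17, limma adjusted p = 0.459). Its separation was narrow, and without PBS replicate 1, which stood above the other arrays, the difference was -0.13. The other Atf4 probe gave -0.55.

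Ddit3 overlapped between these groups. It had 8.29, 9.63 and 9.70 on the responder arrays, against 9.14, 9.36 and 9.23 on the PBS arrays, so responder replicate 1 was far below and the other two were above every PBS array. The difference was -0.04 ± 0.28 (limma adjusted p = 0.97), and 0.42 without responder replicate 1. The other kept Ddit3 probe gave -0.08. The tRNA group was also nearer to 0, with a median of -0.09 and 2 of 14 genes below on all arrays, against 7.98% of all genes. Xpot had 10.25, 10.22 and 10.30 on the responder arrays, against 10.48, 10.46 and 10.28 on the PBS arrays (difference -0.15 ± 0.10, limma adjusted p = 0.54). Iars had 9.58, 9.50 and 9.46 on the responder arrays and 9.63, 9.83 and 9.48 on the PBS arrays, and the groups overlapped (difference -0.13 ± 0.12, limma adjusted p = 0.639). Wars had 8.35, 8.37 and 8.14 on the responder arrays, against 7.94, 7.94 and 8.18 on the PBS arrays (difference 0.27 ± 0.14, limma adjusted p = 0.421). Another Wars probe detected on all 17 arrays gave -0.06, of opposite sign.

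The other integrated stress response genes had a median of -0.06 with 0 called, and the mitochondrial synthetases had a median of 0.01. The interferon gamma-induced list had 12 of 12 positive differences and a median of 0.56, with 0 called. The signals of tissue marker lists also moved with this comparison. The skeletal muscle list (15 of 16 measured) had a median of 2.13, with a summed log2 signal of 10.04 to 16.11 in responders and 8.72 to 9.05 in PBS tumours. The epidermis list (7 of 13) had a median of 0.73, with 9.58 to 13.57 in responders and 9.25 to 9.66 in PBS tumours. The 3 measured globins of the red blood cell list were all higher, on all responder arrays, with a median of 1.34 and 0 called, and their summed log2 signal was 11.50 to 12.27 in responders and 10.28 to 10.78 in PBS tumours. Nkg7, a granule gene of cytotoxic lymphocytes, and Thy1, a surface marker of fibroblasts and T cells, were called higher, by 1.54 and 1.14 on the log2 scale (limma adjusted p = 0.0458 and 0.0471). Nkg7 was the 1 called gene of the leukocyte list, which held 8 positive and 4 negative differences with a median of 0.15. Thy1 was the 1 called gene of the fibrosarcoma and fibroblast list, which held 2 positive and 8 negative differences with a median of -0.16. The part of muscle, skin, blood or lymphocytes in the members' differences was not tested. Without the muscle-rich arrays 16 members lay below on all arrays, against 11.6% of all genes.

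**Figure D4:**
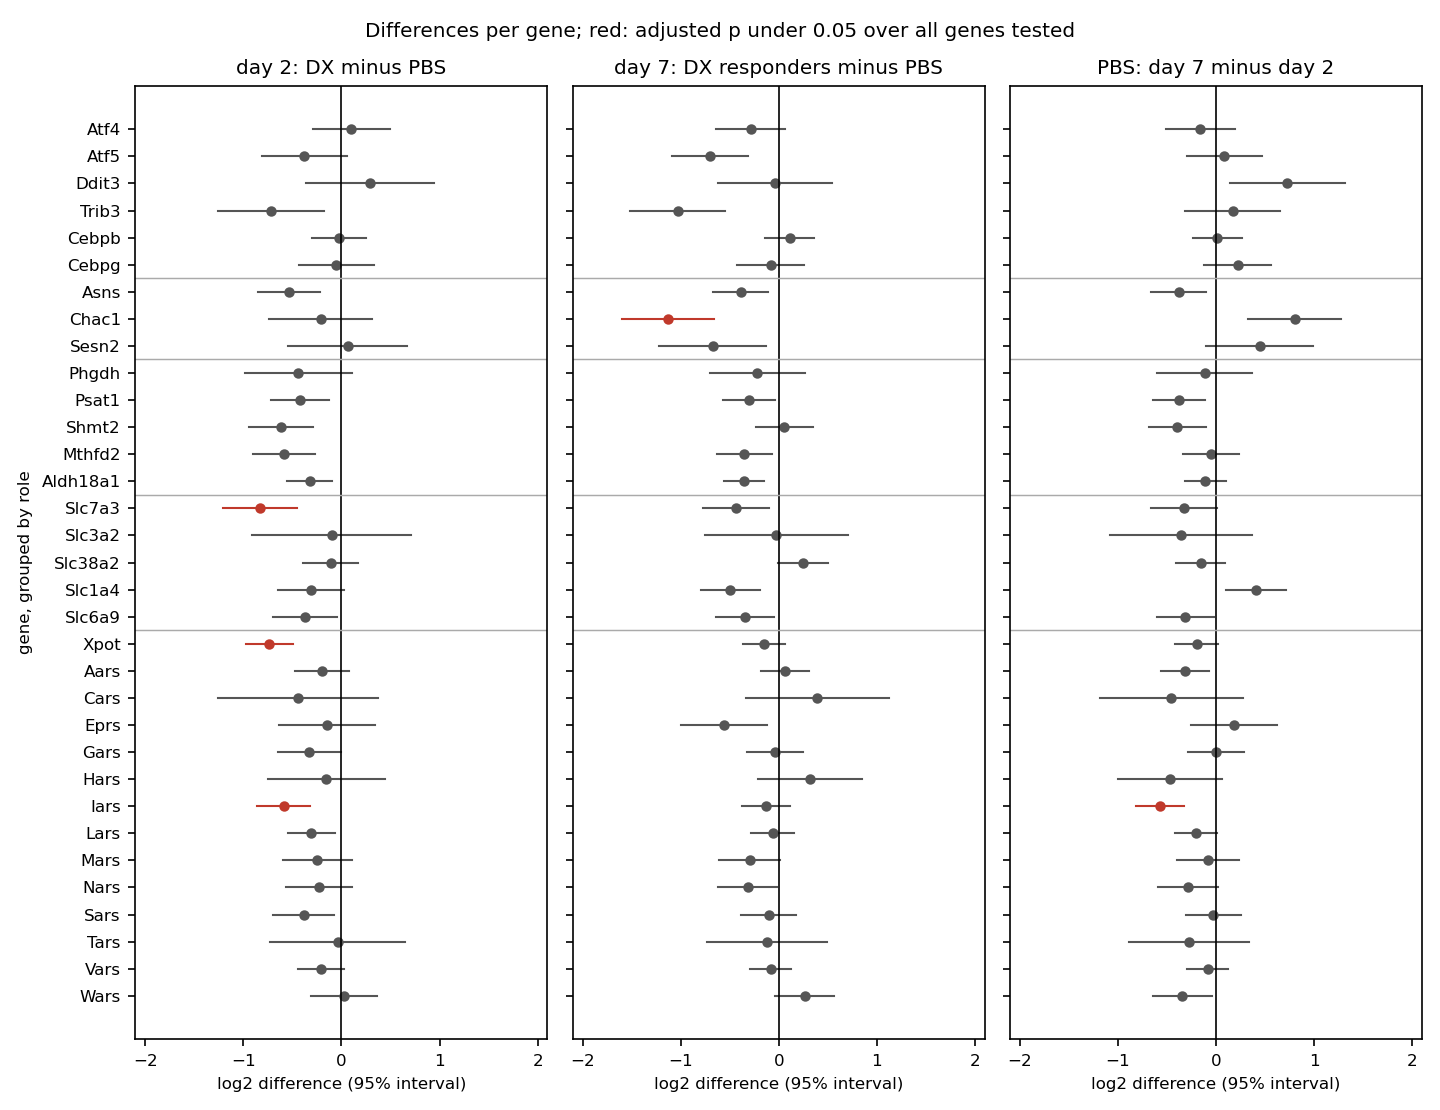
Log2 difference of each member with its 95% interval, from the limma fit, in 3 comparisons, with genes grouped by role and those past the threshold in red. On day 2 the red points are Slc7a3, Xpot and Iars, for day 7 responders it is Chac1, and between PBS tumours of day 7 and day 2 it is Iars.

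In the non-responders of day 7, limma called 0 of 33 members against PBS, where 0.129% of all genes were called (0.104% higher and 0.0241% lower). At an unadjusted p under 0.05, 9 members were lower and 1 was higher, against 4.18% and 6.59% of all genes. All non-responder arrays lay below all PBS arrays for 5 members (15.2%), against 6.28% of all genes, and above for 1 member, against 8.45%. The 5 include Sesn2, which was detected on 0 non-responder arrays and was kept through arrays of other groups. The member with the smallest p was Slc38a2 (SNAT2, a sodium-coupled importer of small neutral amino acids). It was the 1 member above, at 11.45, 11.63 and 11.47 on the non-responder arrays against 11.08, 11.13 and 11.02 on the PBS arrays (difference 0.44 ± 0.12, limma adjusted p = 0.187). The probes of Slc38a2 disagree: another one detected on all 17 arrays gave -0.06 here and -0.65 in responders, where the brightest gave 0.25. Slc7a3 followed, with 7.30, 7.43 and 7.80 on the non-responder arrays against 8.19, 8.26 and 7.78 on the PBS arrays, where the ranges met (difference -0.57 ± 0.16, limma adjusted p = 0.205). Psat1 had 11.47, 11.27 and 11.51 on the non-responder arrays, against 11.94, 11.69 and 11.82 on the PBS arrays (difference -0.40 ± 0.13, limma adjusted p = 0.26).

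Chac1 had 10.60, 10.68 and 11.08 on the non-responder arrays, all below the PBS arrays given above (difference -0.60 ± 0.22, limma adjusted p = 0.341). Trib3 had 9.42, 8.91 and 9.73, the last of them above the lowest PBS array (difference -0.54 ± 0.23, limma adjusted p = 0.401), and its other probes gave -1.03 and -0.24. Asns had 11.66, 11.21 and 11.49 (difference -0.41 ± 0.13, limma adjusted p = 0.285), and its other probes gave -1.01 and -0.40. Atf4 had 10.80, 10.64 and 10.58 (difference -0.31 ± 0.17, limma adjusted p = 0.531), and its other probe gave -0.52. Ddit3 had 9.32, 9.40 and 9.71 (difference 0.23 ± 0.28, limma adjusted p = 0.812), and its other probe gave -0.05. Xpot had 10.25, 10.49 and 10.16, Iars had 9.76, 9.54 and 9.61, and Wars had 8.30, 7.91 and 8.08 on the non-responder arrays, and all of these overlapped with PBS. Sesn2 was detected on 0 of 3 non-responder arrays and was at least 1.23-fold lower there than in PBS tumours (limma adjusted p = 0.301). The median of the members was -0.13, and that of all genes was 0.02. The red blood cell list had a median of 1.01, with a summed log2 signal of 10.59 to 12.83 in non-responders and 10.28 to 10.78 in PBS tumours, and the epidermis list one of 0.47, with 9.44 to 12.71 in non-responders and 9.25 to 9.66 in PBS tumours. Their part in the members' differences was not tested.

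With all 6 DX tumours of day 7 set against the same 3 PBS tumours, limma called 0 members, where 0.297% of all genes were called (0.241% higher and 0.0562% lower). At an unadjusted p under 0.05, 13 members were lower and 1 was higher, against 5.59% and 8.58% of all genes. The smallest p-values were those of Chac1 (difference -0.86 ± 0.19, limma adjusted p = 0.062), Trib3 (-0.79 ± 0.20, limma adjusted p = 0.0897) and Slc7a3 (-0.50 ± 0.14, limma adjusted p = 0.111). Dimmer Trib3 probes, detected on 12 and 7 arrays, gave -0.98 and -0.50. Chac1 and Atf4 lay below PBS on all 6 DX arrays, and so did the signal of Sesn2, which was detected on 0 of these 6 arrays. Slc38a2 lay above on all 6 (difference 0.34), but its other probe detected on all 17 arrays gave -0.36. Other probes gave -1.21 and -0.37 for Asns, against -0.40 for the brightest. The members below were thus 3, or 9.09%, against 2.41% of all genes, and 1 lay above, against 3.91%. Sesn2, among the 3 below, was kept through arrays of PBS and day 2 tumours.

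No member was called between responders and non-responders. Limma called 0 of 33 members and 0 of 12451 genes (0% called), while at an unadjusted p under 0.05, 3 members were lower and 0 higher, against 2.75% and 2.96% of all genes. The smallest p-values belonged to Slc1a4 (ASCT1, a carrier of serine, alanine and other neutral amino acids), with 8.14, 8.24 and 8.39 on the responder arrays against 8.95, 8.42 and 8.53 on the non-responder arrays (difference -0.38 ± 0.14, limma adjusted p = 0.788), to Chac1 (-0.53 ± 0.22, limma adjusted p = 0.807) and to Slc6a9, the glycine transporter GLYT1 (-0.31 ± 0.14, limma adjusted p = 0.833). Without non-responder replicate 1 the difference was -0.22 for Slc1a4 and -0.18 for Slc6a9, and without responder replicate 1 it was -0.24 for Chac1. Within BeadChip 1, with 2 responder arrays and 1 non-responder array, it was -0.10 for Slc1a4 and -0.13 for Chac1. The interval of the Slc1a4 difference ran from -0.68 to -0.07. All responder arrays lay below all non-responder arrays for 3 members (Slc38a2, Slc1a4 and Slc6a9, against 5.42% of all genes) and above them for 1 (Aars, against 5.51%). The median of the members was -0.03. The skeletal muscle list differed by a median of 2.13 between the same groups.

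Between day 10 and day 7 in responders, limma again called 0 members, where 0.00803% of all genes were called, and at an unadjusted p under 0.05 1 member was higher and 0 were lower (1.62% and 2.3% of all genes). All day 10 arrays lay above all day 7 arrays for 1 member, against 2.79% of all genes, and below them for 2 (Sesn2 and Slc7a3), against 4.44%. Sesn2 was detected on 0 of 3 arrays in both groups, so no order is read from it. The member above was Iars, with 9.79, 9.61 and 9.89 on the day 10 arrays against 9.58, 9.50 and 9.46 on the day 7 arrays, a difference of 0.25 ± 0.12 (limma adjusted p = 0.9997). Eprs, the glutamyl-prolyl-tRNA synthetase, differed by 0.40 ± 0.21 and Chac1 by 0.35 ± 0.22. Without day 10 replicate 1 the Eprs difference was 0.25, and its other probes gave 0.14 and 0.71. Without day 7 replicate 1 the Chac1 difference was 0.063. On the day 10 arrays Chac1 had 10.71, 10.50 and 10.61, Trib3 had 9.32, 9.01 and 8.95, and Asns had 11.52, 11.78 and 11.57. Xpot had 10.22, 10.01 and 10.27 and Slc7a3 had 7.49, 7.41 and 7.43, the lowest mean of the 6 groups for Slc7a3. Atf4 was uneven among the day 10 arrays, at 10.77, 11.42 and 10.60, as was Ddit3 at 9.65, 9.28 and 9.67. Wars had 8.09, 8.19 and 8.44. A PBS group of day 10 was not analysed here.

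PBS tumours of 2 days were compared for the course without the drug. Between day 7 and day 2 in PBS tumours, limma called Iars lower and no member higher, where 0.313% of all genes were called lower and 0.634% in either direction. Iars had 9.63, 9.83 and 9.48 on day 7 against 10.38, 10.20 and 10.08 on day 2 (difference -0.57 ± 0.12, limma adjusted p = 0.0306), and its other probe gave -0.42. The difference was -0.72 within BeadChip 2 and -0.51 within BeadChip 3. The call held in 2 of 6 fits that left out 1 array (limma adjusted p from 0.0401 to 0.188, lost without day 2 replicates 1 or 2 or day 7 replicates 1 or 3) and was lost with no filter on detection (adjusted p = 0.0621). At an unadjusted p under 0.05, 7 members were lower and 3 higher, against 7.57% and 6.91% of all genes. The day 7 PBS arrays lay below all day 2 PBS arrays for 11 members, against 12.1% of all genes, and above for 4, against 10.5%. The genes below were 6 of 14 of the tRNA group, Asns, Psat1, Shmt2 and the transporters Slc38a2 and Slc6a9, and those above were Chac1, Ddit3, Cebpg and Slc1a4. A dimmer probe of Cebpg, detected on 12 arrays, gave -0.37 against 0.22 for the one used.

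Chac1 had 11.42, 11.54 and 11.19 on day 7 and 10.07, 10.94 and 10.74 on day 2, without overlap (difference 0.80 ± 0.22, limma adjusted p = 0.112). Chac1 and Psat1 (difference -0.38 ± 0.13, limma adjusted p = 0.177) followed Iars in the order of p-values. Ddit3 differed by 0.73 ± 0.28 (limma adjusted p = 0.234), and Trib3 by 0.17 ± 0.23. Asns differed by -0.38 ± 0.13 (limma adjusted p = 0.197), but its probes disagree in sign: the other 2 gave 0.23 and -0.30, and the mean of the probes -0.15. The members' median was -0.16, and that of all genes was -0.02. Slc7a11, the cystine-glutamate exchanger of the other integrated stress response list, fell by 1.37 on the log2 scale (limma adjusted p = 0.0158). It had 5.34, 5.50 and 5.96 on the day 7 arrays, near the lowest detected signals of those arrays (5.30, 5.37 and 5.43). Its list had 13 positive and 9 negative differences, with a median of 0.08. The dim arrays of this comparison are day 7 PBS replicates 2 and 3. The skeletal muscle list was negative in 15 of 15 genes, with a median of -0.70 and a summed log2 signal of 8.72 to 9.05 on day 7 and 8.62 to 11.80 on day 2. The epidermis list was negative in 6 of 7, with a median of -0.30 and 9.25 to 9.66 on day 7 against 9.35 to 11.80 on day 2. The part of either tissue in the members' differences was not tested.

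Because DX tumours were set against PBS tumours on both days, the change of the DX effect was tested as day 7 (all DX minus PBS) minus day 2 (DX minus PBS). Limma called 0 members, where 0.225% of all genes were called, and at an unadjusted p under 0.05, 4 members were higher and 1 was lower, against 4.79% and 3.24% of all genes. The smallest p-values were those of Xpot (difference of log2 differences 0.61 ± 0.15, limma adjusted p = 0.137), Iars (0.52 ± 0.17, limma adjusted p = 0.344) and Shmt2 (0.58 ± 0.20, limma adjusted p = 0.389). For Xpot the difference on day 7 over all DX was -0.13 and on day 2 -0.73, and the interval of their difference ran from 0.30 to 0.91. The other probes gave 0.20 for Xpot, 0.28 for Iars and 0.05 for Shmt2, the last of these detected on 3 arrays. For Chac1 the difference of differences was -0.65 ± 0.32 (limma adjusted p = 0.627). That the DX effect on any member differs between the days is therefore not shown by this test. All 3 measured globins of the red blood cell list were called higher in this comparison, with a median of 3.90, and the skeletal muscle list was positive in 15 of 15 genes, with a median of 0.83. The part of blood or muscle was not tested.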

How the data were processed

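The authors deposited, per the file headers, 1 signal intensity (linear, not normalized) and 1 detection p-value per probe and array, and a second table of processed intensity values with the same 75th percentile (166.2) on every array. The submitters' processing notes name GenomeStudio 2011.1. The formula behind the p-values is not given in those notes. Signals were background-corrected and quantile-normalized on the log2 scale by the neqc function (limma 3.58.1, R 4.3.3; offset 16, negative controls inferred from the detection p-values). The offset pulls differences of dim probes towards 0. Of 45281 probes, 34885 had 1 symbol, 18 several and 10378 none. The 17674 probes with a detection p under 0.01 on at least 2 arrays were kept, and the brightest probe stood for each gene, which left 12451 features (10035 with a symbol, 2416 without), called genes. Mars was matched as Mars1 through a RefSeq synonym. The 6 group means were fitted over all 17 arrays, moderated along a mean-variance trend (11 residual and 6.98 prior degrees of freedom), and 8 comparisons were made with Benjamini-Hochberg adjustment over all genes at 0.05. The errors given with differences are standard errors. A fold against a group with no detected array is a bound. Groups and replicate numbers are from the labels, BeadChips from the array positions. BeadChip 1 held no PBS array. Day 2 DX and day 7 responders lay on BeadChips 1 and 3, day 7 non-responders on BeadChips 1 and 2. PBS arrays of both days lay on BeadChips 2 and 3, so chip and treatment are partly confounded on both days. Same-numbered samples were not paired (correlations of their deviations from -0.22 to 0.54). The fit was tested on simulated data with 200 genes changed. At a true log2 change of 1, from 37.5% (DX effect between days) to 85% (all DX on day 7) were recovered, with 54.5% on day 2. Smaller changes were not simulated. Precision is limited by the 2 or 3 arrays per group.

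The members, lists and tests were chosen with earlier results of these data known. Values on every array are given for Atf4, Ddit3, Trib3, Asns, Wars and each member called in a comparison, and the 3 members with the smallest p are named in each comparison. Other members named with values (Shmt2 on day 2, Sesn2, Asns and Ddit3 between PBS groups) were added after their values were seen, as were the counts of genes without overlap. Alternatives covered normalization, offset, filter, choice of probe, BeadChip, replicate number, array weights, groups in the fit and arrays left out.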

Additional observations from a re-analysis of the deposited data

How the results depend on the processing

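The medians of the members kept their direction under the other settings in all DX comparisons with PBS. Median differences that moved by more than 0.08, the pooled SD of an array's member median, were day 2 within BeadChip 3 (-0.41), responders against PBS within BeadChip 3 (-0.27) or with 1 array left out (-0.24 to -0.14), responders against non-responders within BeadChip 1 (0.091) and the DX effect of day 7 minus day 2 with 1 array left out (0.046 to 0.17). The number of members called on day 2 (3) was 1 with no detection filter, with the mean of a gene's probes, with BeadChip as a fixed block and with the replicate block, 6 with array weights, 5 with only the groups compared, and 0 to 2 with 1 array left out. For day 7 responders (1) it was 2 with no filter, with probes detected on all arrays and with the mean of probes, 3 with only the groups compared, 0 with BeadChip as a block, with the replicate block and without both muscle-rich arrays, and 0 to 1 with 1 array left out. For all DX on day 7 (0) it was 1 with the mean of probes and 0 to 1 with 1 array left out. For the DX effect of day 7 minus day 2 (0) it was 1 with array weights. For PBS day 7 against day 2 (1) it was 0 with no filter and with the mean of probes, 2 with array weights and with only the groups compared, and 0 to 1 with 1 array left out. The share of all genes called under each of these settings is not given here, so these counts are not read as a result about the members. The replicate block moved Chac1 in day 7 responders to an adjusted p of 0.0508, Slc7a3 on day 2 to 0.0822 and Iars on day 2 to 0.0608, and changed no other call. Members with all arrays below PBS in non-responders (5) were 8 with the mean of probes, against 6.83% of all genes. Without both dim PBS arrays, which left 1 PBS array, they were 16, against 25.7% of all genes. In PBS day 7 against day 2 (11) the members below were 6 with the mean of probes, against 12.2% of all genes. These counts were added after the data were seen. Signs changed for Atf4 on day 2 (-0.044 with the mean of probes) and between PBS groups (0.072 within BeadChip 3). Ddit3 on day 2 was -0.23 within BeadChip 3 and -0.091 without DX replicate 1 (0.67 without DX replicate 2), and in day 7 responders it was 0.046 with array weights and, with 1 array left out, -0.29 (without responder replicate 3) to 0.42 (without responder replicate 1), with 0.022 without PBS replicate 2. Trib3 between PBS groups was -0.040 without day 2 replicate 1 and 0.31 without day 2 replicate 2. Wars on day 2 was -0.052 with the mean of probes, -0.12 within BeadChip 3, -0.12 without DX replicate 1 and -0.0081 without PBS replicate 2. The cause was not tested. No chip held all the groups needed for within-BeadChip values of all DX tumours against PBS or of the DX effect between days.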
